A study of Homo sapiens with 6 samples.

Results

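The mitochondrial ribosomal protein genes were taken as the rows of the count files whose symbol is MRPL or MRPS followed by a number and at most 1 of the letters A, B and C. The rule found 76 of the 23710 gene symbols, 47 of them with the MRPL prefix of the large subunit and 29 with the MRPS prefix of the small subunit. RNA was sequenced from K562 cells, a human erythroid line from a chronic myelogenous leukaemia, after 24 h of culture with 3FM-dC at 20 µM and THU at 2 mM (3 treated libraries) or with DMSO alone (3 DMSO libraries). Both groups were at passages 13 to 16 in medium with 10% serum. Both compounds were dissolved in DMSO and were given together, so their effects cannot be told apart. The labels do not state whether the replicates were grown separately, and p-values here reflect only how these libraries vary, which may be technical.

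Mitochondria carry their own ribosomes, which translate the few proteins that mitochondrial DNA encodes, all of them core subunits of the respiratory chain and the ATP synthase. The ribosomal RNAs come from mitochondrial DNA, while every protein of the particle is encoded in the nucleus, made in the cytosol and imported. Many of these proteins descend from bacterial ribosomal proteins, and others exist only in mitochondria. The small subunit binds the messenger RNA and reads it, and the large subunit forms the peptide bonds.

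All libraries held between 18408826 and 22750278 counts in genes. Levels are given as CPM, the usual depth-scaled count, after scaling by TMM, a method that assumes that most genes do not change. All 7 markers of K562 identity used here, such as HBE1 and GATA1, were detected in every library, with summed levels of 3379 to 3565 CPM in treated cells and 6968 to 7137 CPM in DMSO cells, and all 7 fell. Of 15 markers of T cells, B cells, fibroblasts and epithelium, CD2, MS4A1, LUM, KRT5 and KRT14 had no count in any library. The 15 markers summed to between 76.1 and 83.3 CPM in treated cells and between 118.9 and 121 CPM in DMSO cells. EPCAM made up most of this, with 62.1 ± 1.52 CPM in treated cells, against 103 ± 0.708 CPM in DMSO cells (SD, n = 3 each). The part of these markers in the results was not tested.

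Promoter windows of the genes are shown first, with matches to the motifs that are set beside the responses further on. Of the 3 members that rose, MRPS10 holds both the ETS and the YY1 core, and MRPL48 holds the ETS core without the YY1 core. The window used for MRPS11 holds no match to any of the 8 motifs. Windows from any other MRPS11 start were not searched. The members printed below were chosen after their values were seen. The windows come from RefSeq on GRCh38.p14 and run from 250 bases before to 50 bases after a gene's start. They were found by symbol for 67 of the 76 members, and the first listed window was used for the 11 of these with several starts. Motifs of 8 kinds were searched on both strands, and shares are given beside those in the windows of all 8946 tested genes that have one. CCGGAAG, the core bound by ETS factors such as GABPA, a regulator of nuclear genes for mitochondria, was present in 28 of 67 members (41.8%) and in 20.3% of all tested genes. AAGATGGC, the core bound by YY1, was present in 20 of 67 members (29.9%) and in 5.91% of all tested genes. Both motifs occurred in 8 members. The last letters of CCGGAAG can serve as the first of AAGATGGC, but in these 8 members the matches to the pair lay apart. The windows below are 30 bases long and read 5′ to 3′ on the strand of the gene. Capitals mark a single match in each, which appears as its reverse complement where it lies on the other strand.
MRPS34, ETS, chr16:1773145-1773174, minus strand: gacaccggcctCTTCCGGtgacttccggcc
MRPL27, ETS, chr17:50373174-50373203, minus strand: acttttcgagaCCGGAAGtgagtgatcgaa
MRPL3, ETS, chr3:131502985-131503014, minus strand: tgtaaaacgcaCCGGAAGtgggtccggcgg
MRPS10, ETS, chr6:42217865-42217894, minus strand: ccgctgtaaccCCGGAAGcaatcctgagag
MRPL48, ETS, chr11:73787800-73787829, plus strand: aatttcagaagCTTCCGGaactaaaatgat
MRPL20, YY1, chr1:1407260-1407289, minus strand: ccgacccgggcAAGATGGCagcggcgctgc
MRPS30, YY1, chr5:44808949-44808978, plus strand: aatcgcgggcaAAGATGGCggcggccaggt
MRPS7, YY1, chr17:75261887-75261916, plus strand: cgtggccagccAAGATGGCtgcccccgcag
MRPL46, YY1, chr15:88467362-88467391, minus strand: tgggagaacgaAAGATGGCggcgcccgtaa
MRPS10, YY1, chr6:42217834-42217863, minus strand: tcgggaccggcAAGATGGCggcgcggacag

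GCATGCGC, a core of the NRF1 site, was present in 8.96% of the members and in 5.88% of all tested genes. CACGTG, the E-box bound by MYC, was present in 8.96% of the members and 10.4% of all tested genes, and TGATGNAA, an element bound by ATF4 with its partners, in 1.49% of the members and 1.68% of all tested genes. CCAAT was found in 29.9% of the members and 37.3% of all tested genes, GGGCGG in 61.2% of the members and 71.1% of all, and TATAAA in 2.99% of the members and 5.06% of all. Of the 20 members with AAGATGGC, 15 had a match after the annotated start, beginning between base 7 and base 36 of the transcript, as in the MRPL20, MRPS30, MRPS7, MRPL46 and MRPS10 windows printed above. Of the 28 members with CCGGAAG, 18 had a match that began within 50 bases before the start. A match is a run of letters and not a measured binding site.

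**Figure D1:**
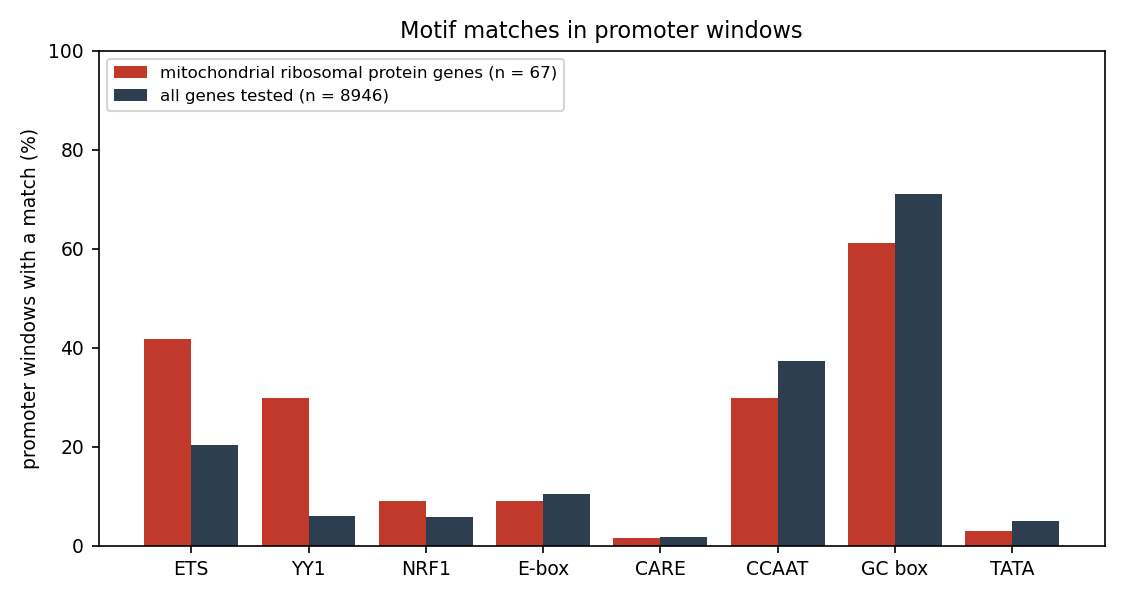
Share of promoter windows that hold a match to each of 8 motifs, for 67 mitochondrial ribosomal protein genes (left bars) and for 8946 tested genes (right bars). The ETS core (41.8% against 20.3%), the YY1 core (29.9% against 5.91%) and the NRF1 core (8.96% against 5.88%) have a higher share among the members, and the other 5 a lower one.

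Transcripts of the mitochondrial ribosome were broadly lower in treated cells. All 76 members passed the filter on low counts, and by edgeR's quasi-likelihood test, adjusted over the 12339 genes tested, 66 members fell, 3 rose and 7 did not pass. Among all genes tested, 32.7% were called lower and 33.8% were called higher, in all 66.4%, so the assumption behind TMM is strained here and total counts are given beside the medians further on. The members' log2 fold changes had a median of -0.36, with quartiles at -0.58 and -0.23, against a median of 0.01 over all genes tested. The falls were modest: those of the 66 members lay between 7.54% and 47.9%, with a median of 23.9%. Of the 76 members 18 fell at least 1.5-fold, as did 1051 of the 12339 genes tested. None of the members reached a fall of 2-fold. In 66 members every treated library lay below every DMSO library (34.5% of all tested genes did so), and in 3 every treated library lay above (35.5% of all tested genes). In bulk RNA, fewer cells of a kind and less RNA per cell cannot be told apart.

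**Figure D2:**
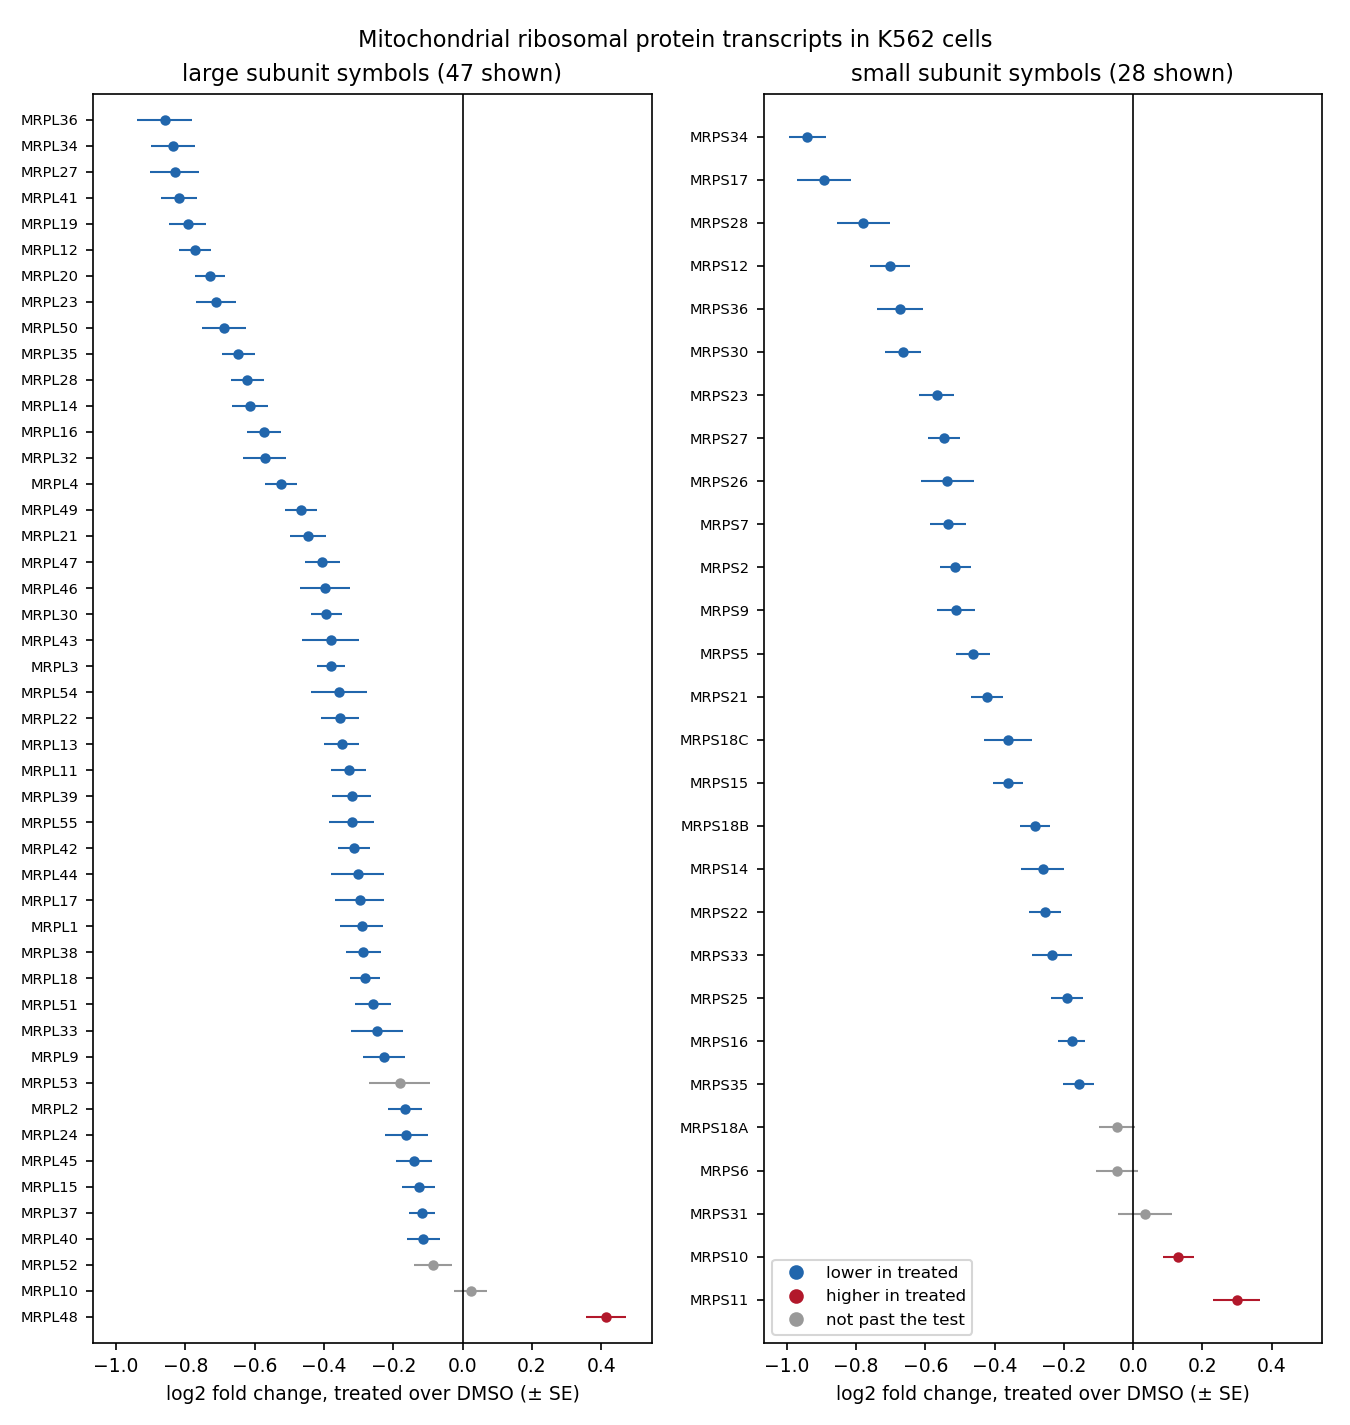
Log2 fold change of treated over DMSO cells (x axis, ± SE) for each mitochondrial ribosomal protein gene, ordered by value, with large subunit symbols on the left and small subunit symbols on the right. MRPS24, which was barely detected, is left out of the drawing. Points run from MRPS34 (-0.94) to MRPL48 (0.41), and most lie left of the zero line.

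Summed over the members, the libraries held 5717, 5472 and 5621 CPM in treated replicates 1, 2 and 3, against 7246, 7219 and 7386 CPM in DMSO replicates 1, 2 and 3. The summed level was thus 23.1% lower in treated cells, and the groups did not overlap. Treated replicate 2 had the lowest value of the 3 treated libraries in 46 of 76 members and in 4675 of the 12339 tested genes. Without that library 65 members were lower and 3 higher, and the median log2 fold change was -0.36.

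Most members of both subunits fell. In the large subunit 43 of 47 members fell, MRPL48 rose and 3 did not pass. In the small subunit 23 of 29 fell, MRPS10 and MRPS11 rose and 4 did not pass. The median log2 fold change was -0.35 for the large and -0.42 for the small subunit. Without DMSO replicate 2 both medians were -0.38. The large and small medians were -0.37 and -0.41 without DMSO replicate 1, and -0.34 and -0.43 without DMSO replicate 3. The gap between them thus varied with the libraries used. The values ran from -0.86 to 0.41 for the large and from -0.94 to 0.30 for the small subunit. Summed levels were 3401 ± 76.1 CPM in treated and 4453 ± 61.8 CPM in DMSO cells for the large subunit. For the small subunit they were 2203 ± 50.9 CPM in treated and 2830 ± 29.96 CPM in DMSO cells (SD, n = 3 each). The ratio of the large to the small sum was 1.56, 1.55 and 1.53 in the treated libraries and 1.56, 1.58 and 1.58 in the DMSO libraries. The sums were 23.6% lower for the large and 22.2% lower for the small subunit, and the ratio was 1.87% lower in treated cells. No test was made of the ratio.

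**Figure D3:**
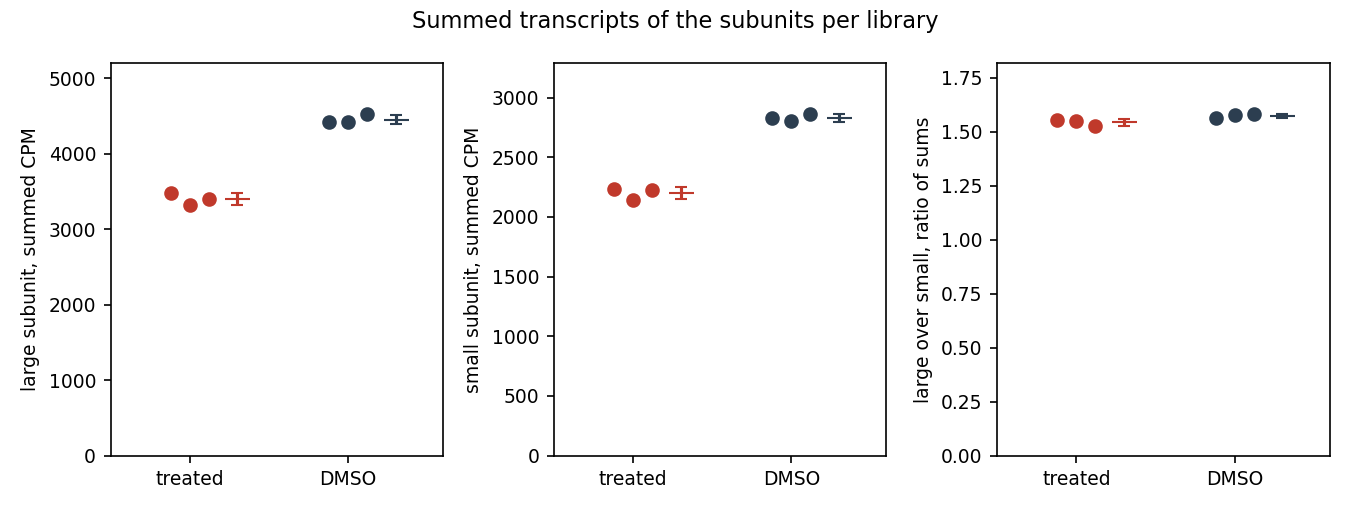
Summed CPM of the large subunit symbols (left), of the small subunit symbols (middle) and the ratio of the sums (right) in each library, with the mean and SD of 3 libraries beside the points. Both sums are lower in treated than in DMSO libraries, and the ratio stays between 1.53 and 1.58 in all 6 libraries.

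The letter in the symbol does not always give the subunit. In structures of the human mitochondrial ribosome the products of MRPS18A and MRPS30 sit in the large subunit, and the product of MRPS36 has since been assigned to the 2-oxoglutarate dehydrogenase complex of the citric acid cycle. Grouped by structure, 44 of 49 large and 21 of 26 small subunit members fell, with median log2 fold changes of -0.35 and -0.39. MRPS36 itself fell, with 35.3 ± 1.51 CPM in treated cells, against 56.2 ± 4.03 CPM in DMSO cells (SD, n = 3 each; log2 fold change -0.67, SE 0.07, edgeR adjusted p = 5.86e-10).

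Members were also divided by whether the ribosomal protein nomenclature gives them a bacterial name or one specific to mitochondria, and most fell in both classes. Of 46 members with a bacterial name 41 fell, 2 rose and 3 did not pass, with a median log2 fold change of -0.41. Of 29 members with a name specific to mitochondria 24 fell, 1 rose and 4 did not pass, with a median of -0.29. This class includes MRPS18A and MRPS18B, which are nevertheless related to a bacterial protein. A fall of at least 1.5-fold was seen in 13 of the 46 with a bacterial name and 4 of the 29 with a mitochondrial one. MRPS36 was the other of these 18 members. Over all genes tested 1051 of 12339 fell as far.

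The largest fall of all was that of MRPS34, a protein of the small subunit found only in mitochondria. It had 83.1, 70.0 and 75.1 CPM in the treated libraries, against 148, 142 and 147 CPM in the DMSO libraries. The groups did not overlap (log2 fold change -0.94, SE 0.05, edgeR adjusted p = 2.73e-15), and its promoter window holds 3 matches to the ETS core. The stretch printed above marks 1 of them in capitals and holds another in small letters. MRPS17, a homologue of bacterial S17, which binds the ribosomal RNA, had 25.4, 21.8 and 26.8 CPM in the treated libraries, against 43.4, 44.7 and 49.0 CPM in the DMSO libraries. This was the second largest fall, to 0.539 of the DMSO level (log2 fold change -0.89, SE 0.08, edgeR adjusted p = 4.47e-11). MRPS28, a small subunit protein, had 21.1, 21.5 and 24.1 CPM in the treated libraries, against 39.7, 38.1 and 36.9 CPM in the DMSO libraries. The highest treated library lay well below the lowest DMSO library (log2 fold change -0.78, SE 0.08, edgeR adjusted p = 4.92e-10).

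MRPS12 lines the decoding centre, where codon and anticodon are matched. It had 59.2, 50.5 and 59.4 CPM in the treated libraries, against 91.4, 92.7 and 90.9 CPM in the DMSO libraries, and the groups were clearly apart (log2 fold change -0.70, SE 0.06, edgeR adjusted p = 1.47e-11). On the opposite strand its exons overlap those of SARS2, the mitochondrial seryl-tRNA synthetase, which was also lower (34.5 ± 1.72 CPM in treated cells, against 45.5 ± 2.19 CPM in DMSO cells; SD, n = 3 each). MRPS7, which organises the head of the small subunit, had 77.9 ± 4.44 CPM in treated cells, against 113 ± 5.73 CPM in DMSO cells (log2 fold change -0.53, SE 0.05, edgeR adjusted p = 5.23e-10). MRPS2, another protein of bacterial type, had 97.0 ± 2.91 CPM in treated cells, against 138 ± 3.17 CPM in DMSO cells (log2 fold change -0.51, SE 0.05, edgeR adjusted p = 5.71e-11). MRPS27, a protein with pentatricopeptide repeats, which bind RNA, had 121 ± 7.46 CPM in treated cells, against 176 ± 2.28 CPM in DMSO cells (log2 fold change -0.55, SE 0.05, edgeR adjusted p = 1.77e-11), and MRPS22, mutated in inherited mitochondrial disease, had 121, 113 and 123 CPM in the treated libraries, against 139, 138 and 149 CPM in the DMSO libraries (log2 fold change -0.25, SE 0.05, edgeR adjusted p = 2.13e-05; means ± SD over 3 libraries each for the other 3 genes). These falls ran from 16.1% for MRPS22 to 31.5% for MRPS27, and no treated library of the 4 genes reached a DMSO library.

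In the large subunit the largest falls were those of MRPL36, MRPL34, MRPL27, MRPL41 and MRPL19. MRPL36, a small zinc-binding protein in bacteria, had 30.2, 24.4 and 23.9 CPM in the treated libraries, against 48.7, 44.3 and 49.2 CPM in the DMSO libraries (log2 fold change -0.86, SE 0.08, edgeR adjusted p = 1.48e-10). MRPL34 had 43.7, 36.9 and 38.1 CPM in the treated libraries, against 71.1, 68.1 and 72.6 CPM in the DMSO libraries (log2 fold change -0.84, SE 0.06, edgeR adjusted p = 2.73e-12), and MRPL27, whose bacterial homologue reaches toward the peptidyl transferase centre, had 30.2, 28.9 and 27.0 CPM in the treated libraries, against 49.9, 48.0 and 54.9 CPM in the DMSO libraries (log2 fold change -0.83, SE 0.07, edgeR adjusted p = 2.46e-11). All 3 descend from bacterial proteins, and in each the highest treated library stood well under the lowest DMSO library. MRPL41, found only in mitochondria, had 61.9, 58.4 and 57.8 CPM in the treated libraries, against 107, 102 and 106 CPM in the DMSO libraries (log2 fold change -0.82, SE 0.05, edgeR adjusted p = 3.33e-14). MRPL19 had 71.8, 63.1 and 69.6 CPM in the treated libraries, against 121, 121 and 112 CPM in the DMSO libraries (log2 fold change -0.79, SE 0.05, edgeR adjusted p = 1.83e-13). The 5 falls lay between 42.3% and 44.9%, close to each other.

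The stalk of the large subunit recruits the translation factors, and its proteins differed in their values. MRPL12, the stalk protein, which in human cells also binds the mitochondrial RNA polymerase, had 101, 90.1 and 97.4 CPM in the treated libraries, against 168, 164 and 161 CPM in the DMSO libraries (log2 fold change -0.77, SE 0.05, edgeR adjusted p = 1.63e-14). MRPL10, which anchors MRPL12 to the ribosome, had 95.5, 94.0 and 89.7 CPM in the treated libraries, against 92.8, 92.7 and 89.4 CPM in the DMSO libraries, and its groups overlapped (log2 fold change 0.02, SE 0.05, edgeR adjusted p = 0.695). MRPL11, which sits at the stalk base, fell by 20.4% with 65.7 ± 0.357 CPM in treated cells, against 82.6 ± 1.36 CPM in DMSO cells (SD, n = 3 each; log2 fold change -0.33, SE 0.05, edgeR adjusted p = 1.79e-06). The ratio of MRPL12 to MRPL10 was 1.06, 0.958 and 1.09 in the treated libraries and 1.81, 1.77 and 1.80 in the DMSO libraries. The groups were fully separate, with an exact permutation p = 0.1 (two-sided, n = 3 each), which is the smallest p that this design allows. With libraries scaled by total counts MRPL10 was called higher (log2 fold change 0.11, adjusted p = 0.0381; range over the alternatives 0.0381 to 1), so its own call depends on the scaling.

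**Figure D4:**
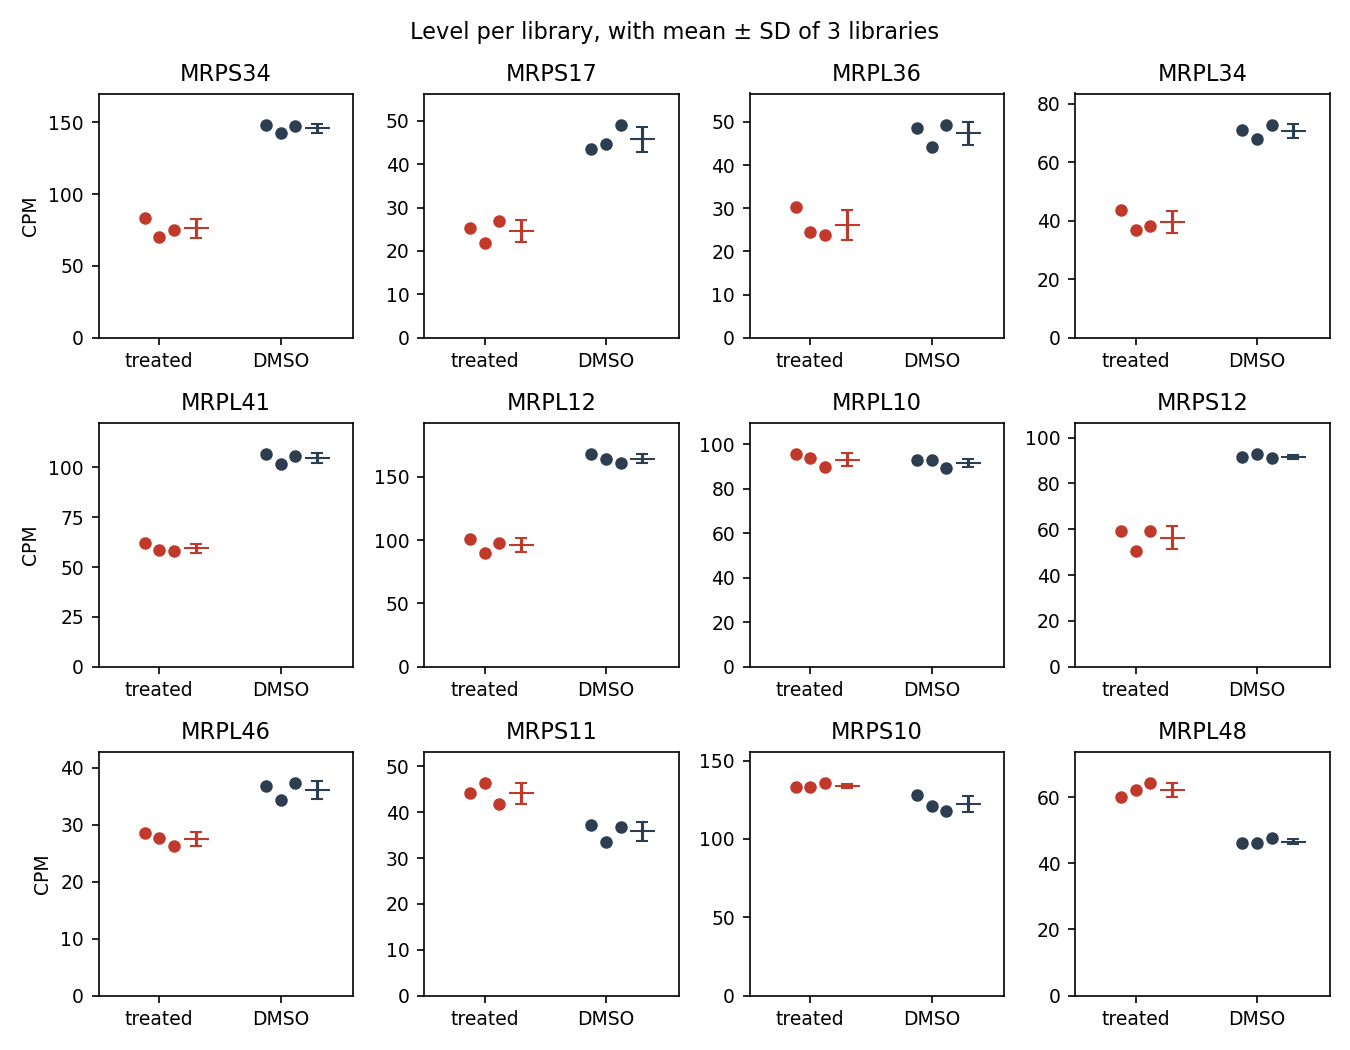
CPM of 12 mitochondrial ribosomal protein genes in each of the 3 treated and 3 DMSO libraries (points), with the mean and SD of each group beside them and axes from 0. MRPS34 lies at 70.0 to 83.1 CPM in treated and 142 to 148 CPM in DMSO libraries, MRPL10 overlaps between the groups, and MRPL48, MRPS11 and MRPS10 are higher in every treated library.

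A minority of 3 members rose. MRPL48, a large subunit protein found only in mitochondria, had 60.0, 62.0 and 64.2 CPM in the treated libraries, against 46.0, 46.2 and 47.5 CPM in the DMSO libraries, a level 1.33 times that of DMSO cells (log2 fold change 0.41, SE 0.06, edgeR adjusted p = 3.60e-07). MRPS11, which helps form the platform of the small subunit, had 44.2, 46.3 and 41.9 CPM in the treated libraries, against 37.2, 33.4 and 36.8 CPM in the DMSO libraries (log2 fold change 0.30, SE 0.07, edgeR adjusted p = 0.00033). MRPS10, a protein of the small subunit head, had 133, 133 and 135 CPM in the treated libraries, against 128, 121 and 118 CPM in the DMSO libraries (log2 fold change 0.13, SE 0.04, edgeR adjusted p = 0.0123). In all 3 genes every treated library lay above every DMSO library, but the rise of MRPS10 was the smallest. Leaving out a single library ended its call for DMSO replicate 2 (edgeR adjusted p = 0.0503), DMSO replicate 3 (0.0757) and treated replicate 3 (0.0534), within a range over all alternatives of 5.53e-05 to 1.

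MRPS11 and MRPL46 are neighbours that start 34 bases apart and run in opposite directions, and they moved in opposite directions. MRPL46, a mitochondria-specific protein of the large subunit that was named after its values were seen, had 28.6, 27.6 and 26.2 CPM in the treated libraries, against 36.8, 34.4 and 37.3 CPM in the DMSO libraries. It fell by 24.0% (log2 fold change -0.40, SE 0.07, edgeR adjusted p = 2.26e-05), while MRPS11 was 1.23 times higher in treated cells. Another named after its values were seen was MRPL20, with 91.8, 88.3 and 90.2 CPM in the treated libraries, against 147, 151 and 149.8 CPM in the DMSO libraries (log2 fold change -0.73, SE 0.04, edgeR adjusted p = 1.77e-14). The YY1 core in the MRPL46 window printed above lies within its transcript. In all, 16 of 76 members (21.1%) had a protein-coding neighbour that starts within 1000 bases on the opposite strand and runs away from it, against 10.2% of 10898 tested genes. Of the 15 such neighbours that the count files hold, 5 fell (33.3%), 7 rose (46.7%) and 3 did not pass. Among all genes tested 32.7% were lower and 33.8% higher. The 15 include MRPS11 and MRPL46, which are members themselves. Falls on both sides were seen for MRPL36 with NDUFS6, for MRPL47 with NDUFB5, for MRPL18 with TCP1 and for MRPL21 with IGHMBP2. Opposite calls were seen for MRPL27 with EME1, MRPL41 with PNPLA7, MRPL50 with ZNF189, MRPL54 with APBA3 and MRPS18C with HELQ as well as for MRPL46 with MRPS11.

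The paralogues MRPS18A, MRPS18B and MRPS18C are related to bacterial S18 and occupy different places in the ribosome. MRPS18C fell by 22.2% and MRPS18B by 17.8%, while MRPS18A did not pass the test. MRPS18C had 31.1, 28.7 and 31.6 CPM in the treated libraries, against 39.2, 39.5 and 38.8 CPM in the DMSO libraries (log2 fold change -0.36, SE 0.07, edgeR adjusted p = 4.07e-05). MRPS18B had 135, 138 and 145 CPM in the treated libraries, against 164, 169 and 176 CPM in the DMSO libraries (log2 fold change -0.28, SE 0.04, edgeR adjusted p = 1.63e-06). MRPS18A had 80.2, 84.1 and 77.5 CPM in the treated libraries, against 83.9, 79.8 and 85.8 CPM in the DMSO libraries, and its groups overlapped (log2 fold change -0.05, SE 0.05, edgeR adjusted p = 0.444).

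The 3 members of each subunit with the highest CPM, without regard to length, ran from a slight to a middling fall. They were MRPL37, MRPL3, MRPL4, MRPS16 and, as described above, MRPS18B and MRPS27. MRPS30, MRPL45 and MRPL44, also given here, are not among them. MRPL37 had 243, 253 and 246 CPM in the treated libraries, against 259, 274 and 270.4 CPM in the DMSO libraries (log2 fold change -0.12, SE 0.04, edgeR adjusted p = 0.00767). It is related in sequence to MRPS30, which fell further, with 81.1 ± 5.72 CPM in treated cells, against 129 ± 2.33 CPM in DMSO cells (SD, n = 3 each; log2 fold change -0.66, SE 0.05, edgeR adjusted p = 2.69e-12). MRPS16, whose loss causes a mitochondrial disease, had 222, 209 and 222 CPM in the treated libraries, against 245, 244 and 249 CPM in the DMSO libraries (log2 fold change -0.18, SE 0.04, edgeR adjusted p = 0.000188). MRPL3 had 164 ± 6.14 CPM in treated cells, against 213 ± 2.38 CPM in DMSO cells and MRPL4 had 123 ± 6.51 CPM in treated cells, against 177 ± 7.17 CPM in DMSO cells (SD, n = 3 each), falls of 23.1% and 30.5%. MRPL45, which ties the ribosome to the inner membrane, had 92.0, 87.7 and 91.2 CPM in the treated libraries, against 93.0, 98.0 and 107 CPM in the DMSO libraries, a fall of 9.27% (log2 fold change -0.14, SE 0.05, edgeR adjusted p = 0.0199). MRPL44, which has an RNase III fold, had 27.7, 30.9 and 29.4 CPM in the treated libraries, against 37.1, 32.2 and 39.0 CPM in the DMSO libraries (log2 fold change -0.30, SE 0.08, edgeR adjusted p = 0.00111). With total counts the calls of MRPL37 (adjusted p = 0.552; range 0.00102 to 1) and MRPL45 (0.403; range 0.00561 to 1) were lost, and that of MRPL45 was also lost without DMSO replicate 3 (0.202). Both calls were lost as well with a filter at a mean of 5 CPM (0.0748 for MRPL37 and 0.0942 for MRPL45).

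Across the 76 members the log2 fold change had a Spearman correlation of 0.05 with the mean level and of 0.03 with exonic length. Over all genes tested the correlations were -0.34 with the mean level and 0.10 with length (10898 genes). These are descriptions over genes of the same 6 libraries. The shares and medians over all genes tested were not matched to the members in level, which limits their use as a background. Per kilobase of annotated exon the mean level ran from 0.275 CPM per kb for MRPS24 to 127 CPM per kb for MRPL12, with a median of 28.4 CPM per kb. After MRPL12 came MRPS34 at 101 CPM per kb, the member with the largest fall, and MRPL37 at 101 CPM per kb.

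MRPS24 was the outlier in level, with 9, 9 and 16 counts in the treated libraries and 11, 23 and 17 counts in the DMSO libraries. Its exons are shared with the read-through gene URGCP-MRPS24, which had 0 counts in all 6 libraries, so its value is uncertain. It did not pass the test, with a log2 fold change of -0.68 and an SE of 0.45 (edgeR adjusted p = 0.179). The other members that did not pass were MRPL53, MRPL52, MRPS18A, MRPS6, MRPL10 and MRPS31, whose log2 fold changes lay between -0.18 and 0.03. Exons of 16 members overlap another gene on the same strand and those of 29 overlap one on the opposite strand in GENCODE, and 33 members have annotated pseudogene copies. Reads totalled apart as ambiguous made up 2.27% to 2.38% of the counts in a library. Reads in those places may thus be missing from both genes or be assigned to either. The pseudogene rows MRPL42P5, MRPL45P2 and MRPS31P5 were weakly detected and did not pass the test.

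Responses were also set beside motif content. Members with the ETS core had a median log2 fold change of -0.36 and those without it one of -0.36, and 22 of 28 and 36 of 39 fell. With the YY1 core the median was -0.40 and without it -0.36, and 16 of 20 and 42 of 47 fell. Members with CCAAT had a median of -0.52 and those without it -0.31, and 19 of 20 and 39 of 47 fell. This was the widest gap of the 8 motifs, and it was picked out after the values were seen. For the NRF1 core the medians were -0.33 with and -0.38 without it, for the E-box -0.36 and -0.36, and for the GC box -0.36 and -0.36. For TATAAA they were -0.36 and -0.36, with 2 members holding it, and the single member with TGATGNAA had -0.32, against -0.36 without it. These are counts over members, with no test. Transcripts of YY1 fell, with 113 ± 8.04 CPM in treated cells, against 137 ± 4.32 CPM in DMSO cells. Those of GABPA did not pass, with 64.0 ± 1.66 CPM in treated cells, against 64.2 ± 2.26 CPM in DMSO cells. GABPB1 (49.7 ± 2.25 against 42.9 ± 1.98 CPM), GABPB2 (8.18 ± 1.31 against 4.90 ± 0.200 CPM) and ATF4 (701 ± 13.3 against 302 ± 3.48 CPM) rose. MYC fell (310 ± 8.27 against 435 ± 2.19 CPM), and NRF1 did not pass (31.5 ± 1.14 against 34.7 ± 1.51 CPM). Values are treated against DMSO cells (SD, n = 3 each), and the part of these factors was not tested.

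Mitochondrial ribosomal proteins listed under other symbols were also mostly lower, with 6 of 7 lower (85.7%) and none higher (median log2 fold change -0.33). Among all genes tested 32.7% were lower. PTCD3, a pentatricopeptide protein of the small subunit, fell the most, with 112 ± 5.97 CPM in treated cells, against 183 ± 5.61 CPM in DMSO cells (SD, n = 3 each; log2 fold change -0.71, SE 0.05, edgeR adjusted p = 6.01e-14). DAP3, which binds GTP, did not pass, with 247 ± 6.44 CPM in treated cells, against 259 ± 5.16 CPM in DMSO cells (SD, n = 3 each; log2 fold change -0.07, SE 0.04, edgeR adjusted p = 0.103).

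Many factors that work with this ribosome were lower, beside 32.7% lower and 33.8% higher among all genes tested. Of 14 translation factors of mitochondria 9 fell (64.3%), none rose and 5 did not pass (median -0.30 on the log2 scale). GFM1, the elongation factor that moves the ribosome along the messenger, had 130.1 ± 4.63 CPM in treated cells, against 218 ± 8.59 CPM in DMSO cells (log2 fold change -0.74, SE 0.04, edgeR adjusted p = 5.69e-15). Of 25 genes for assembly of the ribosome and modification of its RNA 18 fell, 3 rose and 4 did not pass (median -0.33). MRM1, a methyltransferase of the large ribosomal RNA, had 17.9 ± 0.747 CPM in treated cells, against 33.8 ± 2.12 CPM in DMSO cells (log2 fold change -0.92, SE 0.08, edgeR adjusted p = 5.77e-11), while the assembly GTPase MTG1 had 19.7 ± 1.05 CPM in treated cells, against 13.8 ± 0.830 CPM in DMSO cells (log2 fold change 0.51, SE 0.10, edgeR adjusted p = 4.34e-05). Of 23 genes for mitochondrial transcription and RNA processing 18 fell (78.3%), FASTK rose and 4 did not pass (median -0.47). ELAC2, which trims the 3′ ends of mitochondrial tRNAs, had 91.5 ± 4.41 CPM in treated cells, against 159 ± 3.53 CPM in DMSO cells (log2 fold change -0.79, SE 0.05, edgeR adjusted p = 7.40e-15). FASTK had 70.1 ± 3.84 CPM in treated cells, against 58.9 ± 4.21 CPM in DMSO cells (log2 fold change 0.25, SE 0.06, edgeR adjusted p = 0.000658; SD, n = 3 each for all genes of this paragraph).

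Of 22 genes that charge mitochondrial tRNAs 16 fell (72.7%), 2 rose (9.09%) and 4 did not pass (median -0.30). EARS2, the glutamyl-tRNA synthetase of mitochondria, had 43.2 ± 3.89 CPM in treated cells, against 82.2 ± 1.93 CPM in DMSO cells (log2 fold change -0.93, SE 0.06, edgeR adjusted p = 1.15e-13). GARS, whose product serves both cytosol and mitochondria, had 822 ± 21.3 CPM in treated cells, against 470.4 ± 7.59 CPM in DMSO cells (log2 fold change 0.80, SE 0.03, edgeR adjusted p = 2.05e-18). Of 15 listed regulators of mitochondrial genes 14 were tested, of which 5 rose (35.7%), 5 fell (35.7%) and 4 did not pass, shares near the 33.8% higher and 32.7% lower among all genes tested. PPARGC1B, a coactivator of such genes, had 38.5 ± 4.77 CPM in treated cells, against 58.8 ± 1.72 CPM in DMSO cells (log2 fold change -0.61, SE 0.07, edgeR adjusted p = 1.53e-08), and ATF5, a regulator of the mitochondrial stress response, had 435 ± 8.63 CPM in treated cells, against 56.8 ± 3.38 CPM in DMSO cells (log2 fold change 2.93, SE 0.04, edgeR adjusted p = 1.33e-28; SD, n = 3 each).

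Other gene families gave the following counts. Of 37 complex I subunits 31 fell and 1 rose (83.8% lower, median log2 fold change -0.27), against 86.8% lower among the mitochondrial ribosomal proteins. Of 75 tested cytosolic ribosomal proteins 25 fell and 16 rose (33.3% lower, median -0.05), close to the 32.7% lower among all genes tested. With total counts the median over all genes was 0.10 on the log2 scale, and that of the mitochondrial ribosomal proteins -0.27, with 57 lower and 4 higher. A change of scaling shifts all genes nearly alike. The members' median minus that of all genes was -0.375 with TMM, -0.474 with no filter on low counts and -0.326 with a filter at a mean of 5 CPM. The calls over all genes were 4031 lower and 4167 higher with TMM and 3185 lower and 5059 higher with total counts. No test of the difference between families was made.

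**Figure D5:**
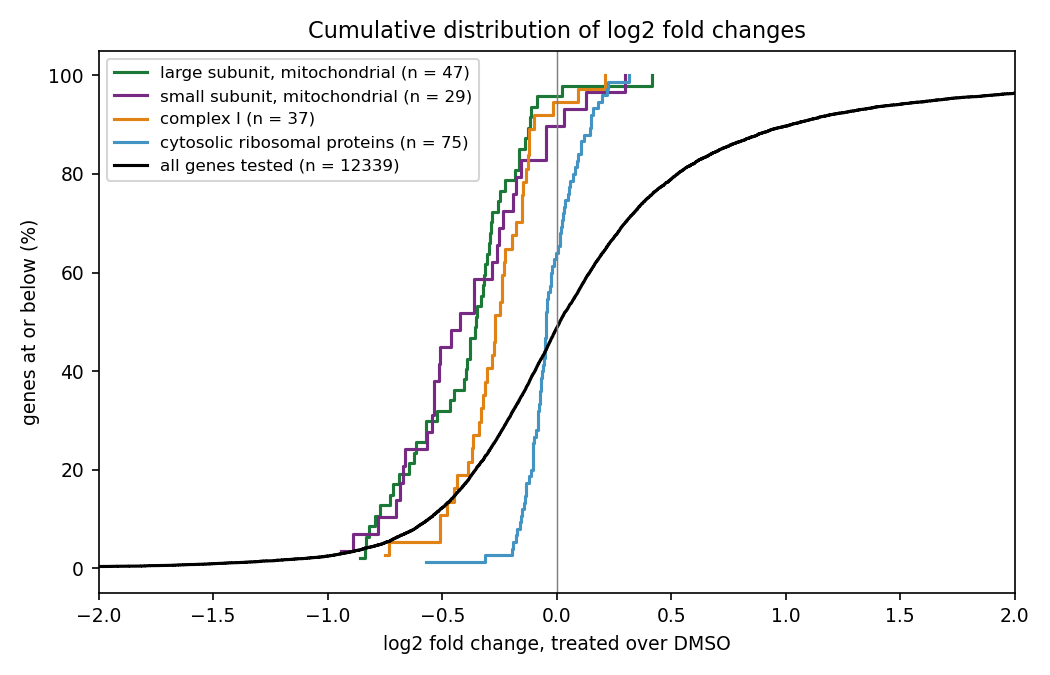
Share of genes (y axis, %) at or below a given log2 fold change of treated over DMSO cells (x axis) for the large and small mitochondrial subunit, complex I, cytosolic ribosomal proteins and all genes tested. The mitochondrial subunits have medians of -0.35 and -0.42, complex I of -0.27, cytosolic ribosomal proteins of -0.05 and all genes of 0.01.

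In the authors' deposited table, which compares a group B with a group A that its header does not name, the adjusted p of 66 members was under 0.05 with a fold below 1, that of 3 with a fold above 1, and 7 did not pass. The median fold ratio of B over A in the authors' deposited table was 0.771 over the members. These ratios lay close to treated over DMSO here, as for MRPS34 (0.517 against 0.521) and MRPL48 (1.32 against 1.33). The deposited table belongs to the same series, so it is not independent of the counts used here.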

How the data were processed

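The authors deposited raw counts per gene symbol for each of the 6 libraries. Per the submitters' processing notes, the tools were STAR, Cufflinks and DESeq2 and the build was hg19. Which program counted the reads, with which annotation and strand setting, is not given in the sources used here. Libraries came from 1000 ng of RNA with a directional mRNA kit, per the labels' protocols. The 5 totals of unassigned reads were left out. Reads in no annotated gene made up 10.9% to 13.1% of the counts in a library. The authors' deposited table also gives a fold ratio and an adjusted p-value per gene.

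Genes were tested with edgeR 4.0.16 in R 4.3.3 (quasi-likelihood test, two-sided, TMM scaling, filterByExpr with a minimum count of 10, treatment as the only term). An adjusted p under 0.05 by Benjamini-Hochberg over 12339 genes counted as a change. SE is the standard error of a log2 fold change. The test was tried on simulated data. A marker of the erythroid list is not reported here. The members and lists were chosen with earlier results of these data known. Members were named by rule: the 5 largest falls and rises and the 3 highest levels of each subunit, 16 fixed members, and the largest change in each list. Others were named after their values were seen. Exonic lengths, neighbours and overlaps came from GENCODE on GRCh38, by symbol, and no coordinates of hg19 are given. At these depths 3 counts correspond to between 0.136 and 0.168 CPM. Within groups, pairs of libraries differed by a chi-square per degree of freedom of 2.38 to 6.22, beyond counting noise. Alternatives were DESeq2 1.42.0, other scalings and filters, a minimum fold change, a replicate block and leaving out each library.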

Additional observations from a re-analysis of the deposited data

How the results depend on the processing

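The medians of the mitochondrial ribosomal proteins kept their direction under all alternatives run, and 19 of 30 named members kept their call under all of them. With a minimum fold change of 1.2 fewer members passed: 38 were lower and 1 higher. The large subunit had 23 lower, and the small subunit 15 lower and 0 higher. Over all 12339 genes tested 4765 changed in place of 8198, with 2124 lower and 2641 higher. Total counts gave 2 large subunit members higher and medians of -0.27 for all members, -0.26 for the large and -0.33 for the small subunit. A filter at a mean of 5 CPM left 75 members tested, with 61 lower (MRPL15, MRPL24, MRPL37, MRPL40 and MRPL45 lost their calls) and 3 higher, and gave medians of -0.32, -0.31 and -0.35 in the same order. With that filter 3444 of all genes were lower and 3508 higher. Subunits taken from structure moved the median of the small subunit to -0.39. Leaving out each library in turn gave 63 to 67 members lower and 2 to 3 higher, 1 to 2 of the small subunit higher, and medians of -0.38 to -0.36 for the members, -0.38 to -0.34 for the large and -0.43 to -0.38 for the small subunit. Over all genes those fits gave 3800 to 4030 lower and 3868 to 4153 higher. Without DMSO replicate 2 the large and small medians were both -0.38. Replicate numbers did not pair the libraries: the deviations of libraries with the same number correlated at -0.00864, 0.00124 and -0.0553, and with a replicate block 65 members were lower and 3 higher. Depth limits MRPS24 most, the member with the fewest counts. The causes of these shifts were not tested. A minimum fold passes fewer genes by construction.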
